A study of Homo sapiens with 60 samples.

Results

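The genes described here are the 31 constitutive subunits of the proteasome, 31 of the 60675 genes in the deposited table, followed across 60 RNA-sequencing libraries of HT29 cells. They were chosen by name: 7 alpha-ring and 7 beta-ring genes of the 20S core particle, and 6 ATPase and 11 non-ATPase genes of the 19S regulatory particle, with the inducible immunoproteasome subunits left out. All 31 were found by symbol and all 31 passed the filter on low counts. HT29, a long-cultured cell line derived from a human adenocarcinoma of the colon, was exposed for 24 h to wortmannin at 10 µM (an inhibitor of phosphoinositide 3-kinase), to water extracts of 6 medicinal plants, or to DMSO vehicle. The extracts were Zingiberis Rhizoma Recens (fresh ginger), Zingiberis Rhizoma (ginger), Pinelliae Tuber, Scutellariae Radix and Zizyphi Fructus at 20, 100 and 500 µg/mL, and Coptidis Rhizoma at 11.6, 58 and 290 µg/mL, called low, medium and high below. With 3 libraries in each of the 20 groups, all of the same line, the labels give DMSO as 0.1% in the vehicle samples, the series text gives another share, and neither says if replicates were grown as cultures of their own, so the p-values here cover only the spread between these libraries, which may be technical.

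The proteasome degrades proteins that carry ubiquitin chains. Its 20S core is a barrel of stacked rings: the alpha rings gate the entrance and the beta rings hold the proteolytic sites, of which PSMB5 has chymotrypsin-like, PSMB6 caspase-like and PSMB7 trypsin-like activity. The 19S cap recognises ubiquitin through PSMD2 and PSMD4, removes the chain through the deubiquitinase PSMD14 and unfolds the substrate with the ring of PSMC ATPases. When proteasome activity is short, the transcription factor NFE2L1 is cleaved by the protease DDI2, enters the nucleus and raises the subunit genes together, binding antioxidant response elements in their promoters.

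Library totals lay between 11.1 and 34.4 M counts (median 23.4 M), and levels are given as CPM, a gene's counts as a share of the TMM-scaled library total. A difference was called when its edgeR quasi-likelihood p, adjusted by the Benjamini-Hochberg method over all 16609 tested genes, was below 0.05. The 10 epithelial markers had a median of 460.0 CPM, with the colon markers CDX2 and CEACAM5 the lowest at 5.89 and 6.71 CPM, while 13 markers of leukocytes, fibroblasts, endothelium and red cells had a median of 0.0351 CPM and summed to 4.93 to 9.01 CPM. On the second principal component 4 libraries stood apart: Zizyphi high replicate 3, ginger high replicate 2, vehicle replicate 1 and replicate 1 of fresh ginger low. In these 4, ribosomal-protein genes took 5.85% to 7.57% of counts, against 4.59% to 5.41% in the other libraries outside Coptidis high, and results are given with and without them where they bear on a call. The library codes put vehicle and wortmannin each in a set of their own and the extracts in 3 further sets of 2 extracts each, so that treatment and set cannot be told apart in a comparison with vehicle, whereas high and low doses of an extract share a set.

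Replicates of most groups lay close together in the subunit genes. Their median spread within a group was 0.099 (SD of log2 CPM), against 0.13 for all tested genes, with the lowest spread at PSMD2 (0.047) and the highest at PSMA7 (0.18) and PSMB3 (0.18). The members were well expressed and the genes were not matched for level, so the smaller spread cannot be read as a trait of the proteasome genes. In vehicle cells, on a scale of CPM per kb of exon, PSMB3 (222) and PSMA7 (213) were highest, followed by the lid subunit PSMD8 (85.2), and PSMC6 (7.49) and PSMD6 (5.11) were lowest. These per-length levels rest on all annotated exons of a gene, used or not. In GRCh38 (GENCODE 29) PSMD1 (ENSG00000173692) spans bases 231056864 to 231172827 of chromosome 2 and PSMD14 (ENSG00000115233) bases 161308038 to 161411717 of the same chromosome, both on the plus strand. The 31 genes lay on 13 chromosomes, with 6 on chromosome 17 and 5 on chromosome 14. PSMC1 has 13 annotated processed copies, which together held 7.54% as many counts as PSMC1 itself, and copies of the other members held less than 0.1%. Genes on the opposite strand that overlap PSMC5 (FTSJ3), PSMC2 (DNAJC2 and SLC26A5), PSMA3 (ARMH4 and PSMA3-AS1), PSMA2 (MRPL32 and an unnamed gene) and PSMC1 (NRDE2) held 51.4%, 47.7%, 42.5%, 32.5% and 22.1% as many counts as the member, and whether counting used strand is not given in the sources used here, so the values of these 5 carry that uncertainty. On the same strand 8 members had overlapping genes, whose counts were largest relative to the member at PSMA2 (8.71%) and PSMA6 (1.55%).

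Promoter sequence is shown for the 3 genes with the largest change among those called between the high and low Coptidis dose (PSMD1, PSMD14 and PSMD11). It is also shown for the catalytic subunit PSMB5 and for PSMD8. The latter was added after its values were seen because it moved the other way. Each run is the 250 bases before the first listed transcription start from RefSeq (GRCh38.p14), written 5′ to 3′ on the strand of the gene. Capitals mark matches, on either strand, to the antioxidant response element (TGACNNNGC or TGAGNNNGC, N being any base), the CCAAT box (CCAAT) and the core of ETS-family sites (CGGAAG).
PSMD1 promoter (chr2:231056617-231056866, plus strand): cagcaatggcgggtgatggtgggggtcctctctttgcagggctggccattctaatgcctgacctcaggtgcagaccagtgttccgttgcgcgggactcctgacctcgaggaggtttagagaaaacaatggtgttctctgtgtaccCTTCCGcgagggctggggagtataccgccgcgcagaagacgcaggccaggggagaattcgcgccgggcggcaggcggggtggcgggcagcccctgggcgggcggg
PSMD14 promoter (chr2:161308175-161308424, plus strand): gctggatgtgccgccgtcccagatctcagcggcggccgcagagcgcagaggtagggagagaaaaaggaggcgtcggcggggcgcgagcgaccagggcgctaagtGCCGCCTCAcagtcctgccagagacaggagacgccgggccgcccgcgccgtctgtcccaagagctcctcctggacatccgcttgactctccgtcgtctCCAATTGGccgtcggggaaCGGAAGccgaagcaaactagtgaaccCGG
PSMD11 promoter (chr17:32444260-32444509, plus strand): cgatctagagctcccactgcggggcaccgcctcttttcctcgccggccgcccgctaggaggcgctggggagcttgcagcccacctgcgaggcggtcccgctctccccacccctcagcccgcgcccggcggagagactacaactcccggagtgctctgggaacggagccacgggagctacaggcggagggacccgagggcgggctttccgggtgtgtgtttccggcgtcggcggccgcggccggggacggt
PSMB5 promoter (chr14:23035221-23035470, minus strand): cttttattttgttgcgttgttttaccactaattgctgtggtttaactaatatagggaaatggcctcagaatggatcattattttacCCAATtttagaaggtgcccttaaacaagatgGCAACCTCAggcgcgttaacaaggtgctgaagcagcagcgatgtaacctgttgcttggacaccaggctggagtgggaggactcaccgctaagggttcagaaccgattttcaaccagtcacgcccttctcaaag
PSMD8 promoter (chr19:38374321-38374570, plus strand): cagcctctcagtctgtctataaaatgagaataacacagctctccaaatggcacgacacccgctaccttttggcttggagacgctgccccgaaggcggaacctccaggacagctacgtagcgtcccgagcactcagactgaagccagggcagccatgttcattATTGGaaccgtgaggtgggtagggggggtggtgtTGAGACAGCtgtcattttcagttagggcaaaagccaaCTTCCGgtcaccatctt

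With the 50 bases after the start included, a window was listed for 26 of the 31 members, all but PSMA7, PSMB1, PSMB6, PSMB7 and PSMD4. An antioxidant response element in either spelling occurred in 12 of these 26 windows (46.2%), against 29.4% of 27305 gene promoters of the same length. CCAAT occurred in 14 of 26 (53.8%, against 35.7%) and CGGAAG in 18 of 26 (69.2%, against 19.9%). PSMD1 had its 2 response elements after the start, TGAGGAGGC at 28 to 36 and TGACTGAGC at 40 to 48 (the start being 1), and PSMD14 had TGAGGCGGC on the other strand at -146 to -138, beside a pair of overlapping CCAAT matches between -48 and -41. PSMB5 and PSMD8 each had a single response element, and PSMD11 had no match to any of these motifs in its window. These matches describe letters only.

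Wortmannin-treated cells had less mRNA of every constitutive subunit. All 31 genes were called lower than in vehicle cells and 0 higher, where 10.8% of all tested genes were called lower. The median log2 change was -0.37 over the 31 genes and 0.0048 over all tested genes. In each of the 31, all 3 wortmannin libraries lay below all 3 vehicle libraries. The summed level of the 31 was 3934 ± 21.5 CPM in wortmannin cells, against 5133 ± 406 CPM in vehicle cells (SD, n = 3 each), and the wortmannin libraries (3911 to 3953 CPM) lay below the other 57 libraries of the study. As these are shares of RNA from whole cultures, less RNA of these genes per cell and fewer cells that express them cannot be told apart.

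**Figure D1:**
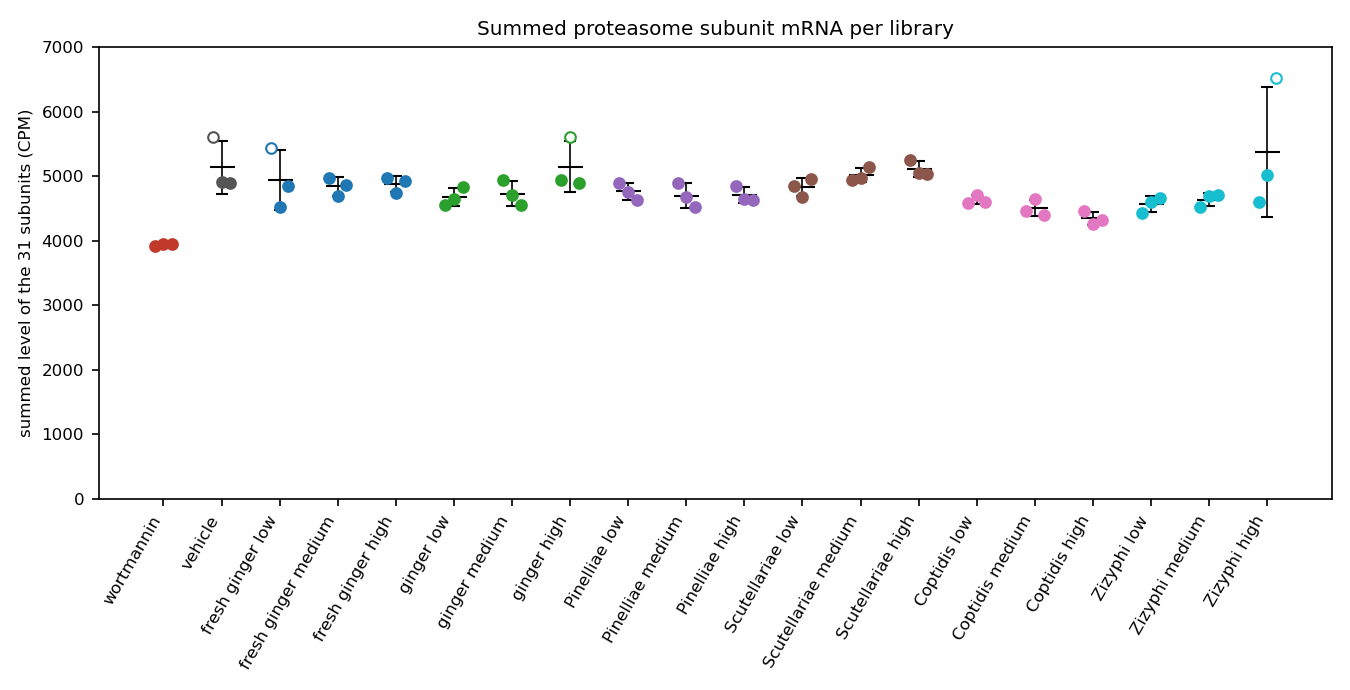
Summed CPM of the 31 subunit genes in each of the 60 libraries, by group. Points are libraries, open points the 4 that stood apart, and bars the mean ± SD of 3 libraries; wortmannin sits at 3911 to 3953 CPM, below the rest, and Coptidis high next at 4255 to 4453 CPM.

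The decrease ran through all 4 classes, with medians of -0.33 in the alpha ring, -0.37 in the beta ring, -0.36 in the ATPases and -0.34 in the non-ATPases. PSMB3, a beta-ring subunit without a proteolytic site, had the largest change with all libraries in the fit: 182, 178 and 184 CPM in wortmannin cells, against 321, 243 and 220.3 CPM in vehicle cells (log2 change -0.53 ± 0.15, approximate SE; edgeR adjusted p = 0.00777). The highest of its vehicle values is the library that stood apart. Without the 4 such libraries its change was -0.36, behind several genes led by PSMC2 (-0.46), PSMB6 (-0.41), PSMD11 (-0.41) and PSMA4 (-0.38). The caspase-like PSMB6 had 60.9, 58.5 and 61.0 CPM in wortmannin cells, against 97.1, 78.3 and 81.8 CPM in vehicle cells (-0.51 ± 0.11; edgeR adjusted p = 0.00104). PSMA7 (-0.50 ± 0.14) and PSMA4 (-0.45 ± 0.089), both of the alpha ring, fell by similar amounts. The smallest p-values belonged to steadier genes. The lid subunit PSMD11, which clamps the cap to the core, had 213, 208 and 209 CPM in wortmannin cells, against 300.0, 275 and 283 CPM in vehicle cells (-0.45 ± 0.050; edgeR adjusted p = 1.04e-09). The ATPase PSMC2 had 106, 111 and 104 CPM in wortmannin cells, against 155, 147 and 146 CPM in vehicle cells (-0.48 ± 0.057; edgeR adjusted p = 4.31e-09). For both, the gap between the groups was wider than the range inside either.

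The subunits that handle ubiquitin and those that cut proteins were lower too. PSMD14 changed by -0.39 ± 0.054 (edgeR adjusted p = 2.84e-07) and PSMD2 by -0.33 ± 0.043 (4.46e-08), with 216, 220.3 and 221 CPM of PSMD2 in wortmannin cells, against 284, 272 and 270.3 CPM in vehicle cells. The trypsin-like PSMB7 changed by -0.37 ± 0.091. PSMB5 and PSMD4 were closest to the threshold: PSMB5 had 74.7, 76.3 and 72.5 CPM in wortmannin cells, against 96.1, 91.1 and 83.1 CPM in vehicle cells (-0.27 ± 0.095; edgeR adjusted p = 0.035), and PSMD4 changed by -0.25 ± 0.085 (edgeR adjusted p = 0.0309).

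Without the 4 libraries that stood apart, which include vehicle replicate 1, all 31 were again called lower, with a median of -0.31. Leaving out vehicle replicate 1 alone left 21 of the 31 called, and the calls lost included PSMB3, PSMA7, PSMA2 and PSMB5. Ribosomal-protein genes, a mark of the libraries that stood apart, took 5.1% to 5.17% of counts in wortmannin and 5.16% to 6.39% in vehicle libraries, and their part in the change was not tested. Set against the mean of the 6 low-dose groups in place of vehicle, a comparison added after the data were seen, wortmannin cells had 22 of the 31 genes called lower, where 10.4% of all tested genes were. PSMC2 (-0.38 ± 0.045), PSMD11 (-0.37 ± 0.039) and PSMD2 (-0.32 ± 0.034) were among them, while PSMB3 (-0.30 ± 0.11; edgeR adjusted p = 0.0518), PSMB5 (-0.12 ± 0.074; edgeR adjusted p = 0.261) and PSMD4 (-0.16 ± 0.066; edgeR adjusted p = 0.074) were not.

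Around the constitutive particle, the genes for partners of the 19S cap fell too. All 4 of the remaining cap proteins were called lower: the ubiquitin receptor ADRM1 (-0.32), the small subunit SEM1 (-0.44) and the deubiquitinases USP14 (-0.17) and UCHL5 (-0.29). Of 10 genes for p97 and its shuttle factors 6 were called lower and 0 higher, led by VCP, the p97 segregase itself (376 ± 2.56 CPM in wortmannin cells and 468 ± 4.91 CPM in vehicle cells; -0.32, edgeR adjusted p = 1.15e-09), and its adaptors NSFL1C (-0.40), UFD1 (-0.24) and NPLOC4 (-0.15). Of 9 assembly chaperones only POMP (-0.39), which matures the core particle, and PSMD10 (-0.32) were called, both lower. Of 6 ubiquitin and E1 genes 3 were called lower, UBB (-0.42) and UBA1 (-0.13) among them. Of 3 genes for other caps and the inhibitor, PSMF1 (-0.15) and PSME3 (-0.13) were lower. The 2 called among 5 immunoproteasome and PA28 genes moved the other way: PSMB8 (0.65; 15.5 ± 1.13 CPM in wortmannin cells and 10.0 ± 1.58 CPM in vehicle cells) and PSMB9 (1.32; 2.03 ± 0.38 CPM in wortmannin cells and 0.818 ± 0.11 CPM in vehicle cells). Of 8 genes that control proteasome transcription 1 was called, MAFG (-0.18). NFE2L2 had 118 ± 3.79 CPM in wortmannin cells and 126 ± 7.64 CPM in vehicle cells and did not pass the test. Of 9 proteotoxic stress genes HSPA1A was higher (0.23) and BAG3 lower (-0.24). Of 12 NRF2 targets outside the proteasome AKR1C1 (1.21) and AKR1B10 (0.48) were higher, and GCLM (-0.30) and SRXN1 (-0.17) lower.

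**Figure D2:**
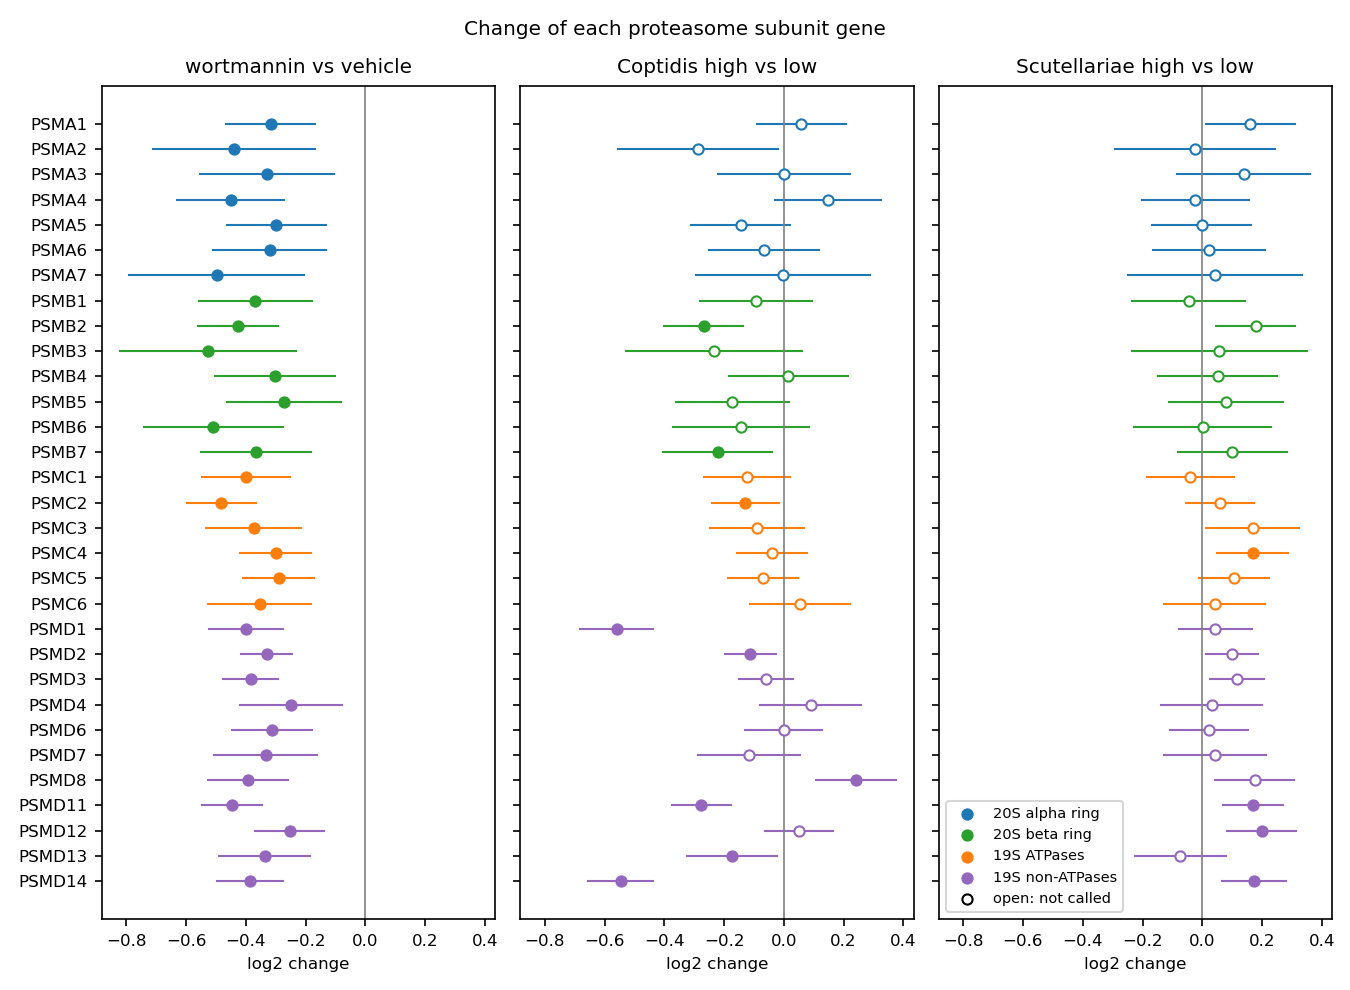
Log2 change of each of the 31 genes (rows, coloured by class) in wortmannin against vehicle, Coptidis high against low dose and Scutellariae high against low dose. Points are edgeR estimates with nominal 95% intervals and filled points were called; all 31 are filled and negative for wortmannin, while PSMD1 and PSMD14 stand out for Coptidis.

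Between the high and low dose of Coptidis a few subunit genes changed strongly and most did not pass the test. Of the 31, 8 were called lower and 1 higher, where 25.3% of all tested genes were called lower and 27.1% higher, so the share of members called lower (8 of 31) was near that of all genes. The largest changes were those of PSMD1 and PSMD14 in the 19S cap, which fell by 0.56 and 0.55 on the log2 scale. PSMA2 of the alpha ring (-0.29, not called), PSMD11 of the cap (-0.28) and PSMB2 of the beta ring (-0.27) came next. The median over the 31 was -0.094. With all libraries in the fit no alpha-ring gene was called, against 2 of 7 in the beta ring, 1 of 6 ATPases and 6 of 11 non-ATPases. The difference between classes was not tested, and the class counts changed with the fit. Without the 4 libraries that stood apart, the alpha-ring genes PSMA2 (-0.29) and PSMA5 (-0.15) were called lower and PSMA4 (0.14) higher. Further genes called lower in that fit were PSMB3 (-0.24), PSMB5 (-0.18), PSMB6 (-0.15), PSMC1 (-0.13) and PSMD7 (-0.12).

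PSMD1, the large scaffold subunit of the base, had 186, 180.2 and 194 CPM at the low dose, 170.1, 178 and 183 CPM at the medium dose and 126, 128 and 126 CPM at the high dose. The high dose stood far below the others, which overlapped each other (high against low -0.56 ± 0.061; edgeR adjusted p = 4.09e-11). The deubiquitinase PSMD14 had 91.0, 90.8 and 92.0 CPM at the low dose, 84.6, 85.9 and 86.7 CPM at the medium dose and 60.4, 62.0 and 65.0 CPM at the high dose. Its 3 doses did not overlap (high against low -0.55 ± 0.054; edgeR adjusted p = 2.17e-12). PSMD11 had 268, 261 and 260.5 CPM at the low dose, 258, 249.6 and 253 CPM at the medium dose and 218, 217 and 217 CPM at the high dose (high against low -0.28 ± 0.050; edgeR adjusted p = 5.42e-06). In the core, the beta subunit PSMB2 had 211, 195 and 209 CPM at the high dose, against 258, 243 and 239.9 CPM at the low dose (-0.27 ± 0.065; edgeR adjusted p = 0.000504).

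Smaller decreases were called for PSMB7 (-0.22 ± 0.090; edgeR adjusted p = 0.0358), the lid subunit PSMD13 (-0.17 ± 0.075; 0.0489), PSMC2 (-0.13 ± 0.056; 0.0492) and the ubiquitin receptor PSMD2 (-0.11 ± 0.042; 0.0234). PSMD8, a lid subunit whose yeast counterpart joins late in lid assembly, was the gene that rose: 294, 271 and 285 CPM at the high dose, against 232, 245 and 242 CPM at the low dose (0.24 ± 0.066; edgeR adjusted p = 0.00169). Its 3 high-dose libraries lay above all low-dose and medium-dose libraries. PSMB5 (-0.17, interval -0.36 to 0.017), PSMB6 (-0.14, interval -0.37 to 0.083) and PSMD4 (0.089, interval -0.079 to 0.26) did not pass the test with all libraries in the fit. Without the 4 libraries that stood apart, PSMB5 (-0.18, edgeR adjusted p = 0.00512) and PSMB6 (-0.15, edgeR adjusted p = 0.0251) were called lower. PSMD4 (0.084, edgeR adjusted p = 0.19) was again not called.

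**Figure D3:**
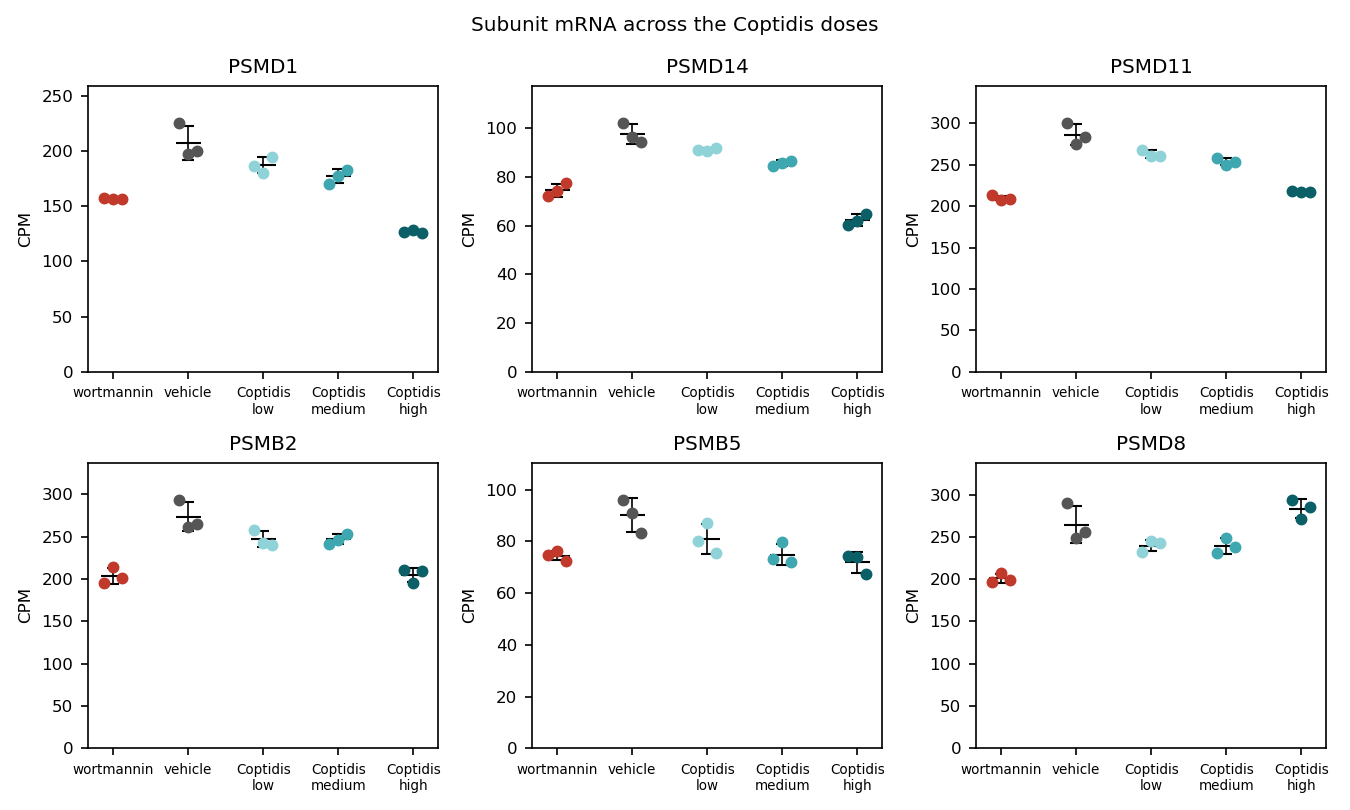
CPM of PSMD1, PSMD14, PSMD11, PSMB2, PSMB5 and PSMD8 in wortmannin, vehicle and the 3 Coptidis doses, 3 libraries each (points) with mean ± SD (bars). PSMD1 and PSMD14 drop at the high dose to 126 to 128 and 60.4 to 65.0 CPM, below their wortmannin values, while the mean of PSMD8 is highest there at 283 CPM.

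The change came at the top dose. High against medium dose called 4 genes lower (PSMD1 -0.48, PSMD14 -0.46, PSMB2 -0.27 and PSMD11 -0.22), where 22.2% of tested genes were called lower, and PSMD8 higher (0.24), where 24.4% were called higher. Medium against low dose called 0 of 31 with edgeR (1.31% of all tested genes in either direction), with 0 at an unadjusted p under 0.05 and 0 by DESeq2. Against vehicle, the low dose called 0 with edgeR (0.397% of tested genes in either direction), with 10 at an unadjusted p under 0.05 and 0 by DESeq2. Compared with the same vehicle, the medium dose called 6 lower (2.69% of tested genes), PSMC3 (-0.25), PSMC2 (-0.23), PSMD1 (-0.23), PSMD3 (-0.21), PSMD14 (-0.19) and PSMD11 (-0.17). That count was 2 without vehicle replicate 1, 2 without Coptidis medium replicate 1, 2 with only the libraries compared and 12 with no filter on low counts.

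At the high dose 20 of 31 were called lower than in vehicle cells and 0 higher, where 27.1% of tested genes were called lower. PSMD1 (-0.71 ± 0.061; edgeR adjusted p = 2.68e-14) and PSMD14 (-0.64 ± 0.054; 1.29e-14) again led, and the alpha-ring gene PSMA2 (-0.48 ± 0.13) and PSMB3 (-0.47 ± 0.15) came next. Without the 4 libraries PSMA2 (-0.33) and PSMB3 (-0.30) stood behind PSMB2 (-0.36) and PSMD11 (-0.36). All of the catalytic genes were lower here, PSMB7 by -0.38, PSMB6 by -0.35 and PSMB5 by -0.33, and 6 of 7 beta-ring genes were called in all, against 2 of 7 in the alpha ring. PSMD8 (0.10 ± 0.066; edgeR adjusted p = 0.202) and PSMD4 (0.013 ± 0.084; 0.914) were not called. Without the 4 libraries that stood apart, 19 were called lower and PSMD8 was called higher (0.17; edgeR adjusted p = 0.00206). Wortmannin and Coptidis were set against the same 3 vehicle libraries, so their changes share that side. PSMD1 had 157 ± 0.27 CPM in wortmannin cells, 127 ± 1.33 CPM in Coptidis high cells and 207 ± 15.4 CPM in vehicle cells (SD, n = 3 each). PSMD8 had 201 ± 5.43 CPM in wortmannin cells, 283 ± 11.4 CPM in Coptidis high cells and 264 ± 22.1 CPM in vehicle cells, and its Coptidis and vehicle libraries overlapped.

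The high-against-low count changed with the libraries in the fit. It was 17 (15 lower, 2 higher) without the 4 libraries that stood apart, none of which is a Coptidis library, and 18 (16 lower, 2 higher) when only the Coptidis libraries compared were fitted. The share of all tested genes called in these refits is not given here, so their counts cannot be set against it. PSMD1, PSMD14, PSMD11, PSMB2 and PSMD8 were called under all 12 alternatives, and PSMD13 was lost whenever any 1 of the 6 libraries was left out. Coptidis high libraries also differed in make-up: mitochondrial transcripts took 3.77% to 3.99% of counts at the high dose and 11.8% to 12.2% at the low dose, and ribosomal-protein genes 5.94% to 6.71% and 4.88% to 5.16%. Their part in these changes was not tested.

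Genes that control or assist the proteasome moved in both directions between Coptidis doses. Of 8 genes that control its transcription 6 were called higher and 0 lower: NFE2L1 had 454 ± 21.2 CPM at the high dose and 248 ± 10.0 CPM at the low dose (0.87; edgeR adjusted p = 2.74e-18), followed by its partner MAFF (1.28), NFE2L2, which encodes NRF2 (0.54), and MAFG (0.33). Of 12 NRF2 targets outside the proteasome all 12 were higher (median 1.05), with SLC7A11 (2.03), GCLC (1.17), TXNRD1 (1.20) and AKR1C1 (2.11) at the smallest p-values. Of 5 immunoproteasome and PA28 genes 4 were higher, PSMB9 (1.85; 3.23 ± 0.23 CPM at the high and 0.886 ± 0.27 CPM at the low dose), PSMB8 (0.74), PSME1 (0.33) and PSME2 (0.31). Assembly chaperones split into 4 higher and 2 lower of 9: PSMD10 (0.44), PSMD5 (0.35) and PSMD9 (0.32), which act on the base, were higher, and PSMG4 (-0.48), which acts on the alpha ring, was lower. VCP fell to 296 ± 4.19 CPM at the high dose, against 449 ± 2.59 CPM at the low dose (-0.60; edgeR adjusted p = 3.67e-20), and with UFD1 (-0.33) made up the 2 lower of 10 p97 and shuttle genes, of which 3 were higher, UBQLN1 (0.22), FAF2 (0.30) and RAD23B (0.20). Of 6 ubiquitin and E1 genes 1 was called higher and 1 lower, the latter being UBA1, the main ubiquitin-activating enzyme (-0.28). SEM1 (-0.39) was the 1 lower of 4 cap proteins, and PSMF1 (0.21) and PSME3 (0.12) were the 2 higher of 3 other caps and inhibitor. Of 9 proteotoxic stress genes 4 were higher and 3 lower, the higher ones being DDIT3 (3.47; 71.2 ± 4.18 CPM at the high and 6.41 ± 0.53 CPM at the low dose), ATF3 (3.50), HMOX1 (1.76) and SQSTM1 (1.01).

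For Scutellariae most members did not pass the test. Between its high and low dose 4 of 31 genes were called higher and 0 lower, where 7.92% of tested genes were called higher, a share of the members not far from that of all genes. The 4 were the lid subunits PSMD12 and PSMD11, the deubiquitinase PSMD14 and the ATPase PSMC4. PSMD12 had 263, 252 and 243 CPM at the high dose, against 228, 212 and 221 CPM at the low dose (0.20 ± 0.057; edgeR adjusted p = 0.00973). PSMD14 had 112, 106 and 107 CPM at the high dose, against 101, 90.6 and 97.6 CPM at the low dose (0.17 ± 0.053; edgeR adjusted p = 0.0183). PSMD11 (0.17 ± 0.049) and PSMC4 (0.17 ± 0.059) were alike in size, and in these 4 genes the libraries of the 2 doses did not overlap. PSMB5 (0.080, interval -0.11 to 0.27), PSMB6 (0.0012, interval -0.23 to 0.23), PSMB7 (0.10, interval -0.082 to 0.28), PSMD2 (0.10, interval 0.014 to 0.19; edgeR adjusted p = 0.107) and PSMD4 (0.031, interval -0.14 to 0.20) were not called.

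Against vehicle, Scutellariae high called 3 higher, a share like that of all tested genes (9.72%), PSMD12 (0.20), PSMD14 (0.15) and PSMD2 (0.12). The call in the dose comparison rested on few libraries: 0 were called without Scutellariae low replicate 2, 1 without Scutellariae high replicate 1, 9 without the 4 libraries that stood apart and 11 when only the libraries compared were fitted. Against vehicle the count was 1 without Scutellariae high replicate 1 and 6 without the 4 libraries. For these refits the share of all tested genes called is not given here. Among the other lists, 12 of 12 NRF2 targets were higher between the doses (median 0.88), led by AKR1B10 (1.41), SLC7A11 (1.40), GCLC (0.93) and GCLM (1.10), and 7 of 9 proteotoxic stress genes were higher, among them HMOX1 (1.42), SQSTM1 (0.60), ATF3 (1.27) and HSPH1 (0.33). MAFG (0.39), MAFF (0.36) and NFE2L2 (0.16) were the 3 higher of 8 control genes, and NFE2L1 had 271 ± 5.38 CPM at the high dose and 245 ± 16.7 CPM at the low dose (0.15; edgeR adjusted p = 0.0812). PSMB8 (-0.58) and PSMB9 (-1.14) were the 2 lower of 5 immunoproteasome and PA28 genes. Of 10 p97 and shuttle genes 4 were higher, RAD23B (0.23), UBQLN1 (0.22) and UBQLN4 (0.21) among them, and 1 was lower, UBQLN2 (-0.27). PSME3 (0.22) and UCHL5 (0.16) were the single genes called in their lists, and 0 of 9 assembly chaperones and 0 of 6 ubiquitin and E1 genes were called.

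The remaining extracts gave 0 called members with edgeR after the filter on low counts. With no filter, edgeR called 20 higher for Zizyphi high against low, and 3 lower each for fresh ginger high and Pinelliae high against vehicle. For high against low dose, the share of tested genes called in either direction was 1.79% for fresh ginger, 0.915% for ginger, 0.0421% for Pinelliae and 0.0482% for Zizyphi, and the members with an unadjusted p under 0.05 numbered 2, 10, 0 and 26. DESeq2 called 0, 0, 0 and 23. Shares of all tested genes are given here for edgeR with the filter only. For high dose against vehicle, the shares of all tested genes were 2.09% for fresh ginger, 0.789% for ginger, 0.187% for Pinelliae and 0.0181% for Zizyphi, the members at an unadjusted p under 0.05 numbered 5, 1, 7 and 0, and DESeq2 called 0 in each. Ginger against fresh ginger at the high dose called 0 members with edgeR and with DESeq2, with 1 at an unadjusted p under 0.05, and 0% of all tested genes.

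Zizyphi had the widest spread. All 31 members had a positive log2 change between its high and low dose (median 0.24), and 1 library lay far above the others. The summed level was 4590, 5008 and 6514 CPM at the high dose, against 4564 ± 125 CPM (SD, n = 3) at the low dose, and the library at 6514 CPM is replicate 3, which stood apart. PSMB3 had 202, 233 and 428 CPM at the high dose, against 207, 196 and 217 CPM at the low dose (0.47 ± 0.15; edgeR adjusted p = 0.0678). PSMB5 had 77.8, 84.5 and 127 CPM at the high dose, against 72.1, 76.9 and 80.0 CPM at the low dose (0.34 ± 0.094; edgeR adjusted p = 0.0621). The lid subunit PSMD12 had 219, 229.9 and 227 CPM at the high dose, against 218, 219 and 219 CPM at the low dose. The median change was 0.32 in the alpha ring, 0.34 in the beta ring, 0.18 in the ATPases and 0.17 in the non-ATPases. Without the 4 libraries 0 members were called and the median was 0.075, and all 31 changes were still positive. With Zizyphi high replicate 1 or replicate 2 left out, 26 and 20 members were called higher. Both of these fits keep replicate 3, which stood apart, and the share of all tested genes called in them is not given here. For ginger, whose high replicate 2 stood apart at 5599 CPM, all 31 changes were positive (median 0.15) and 0 were called; without the 4 libraries 29 were positive (median 0.061).

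**Figure D4:**
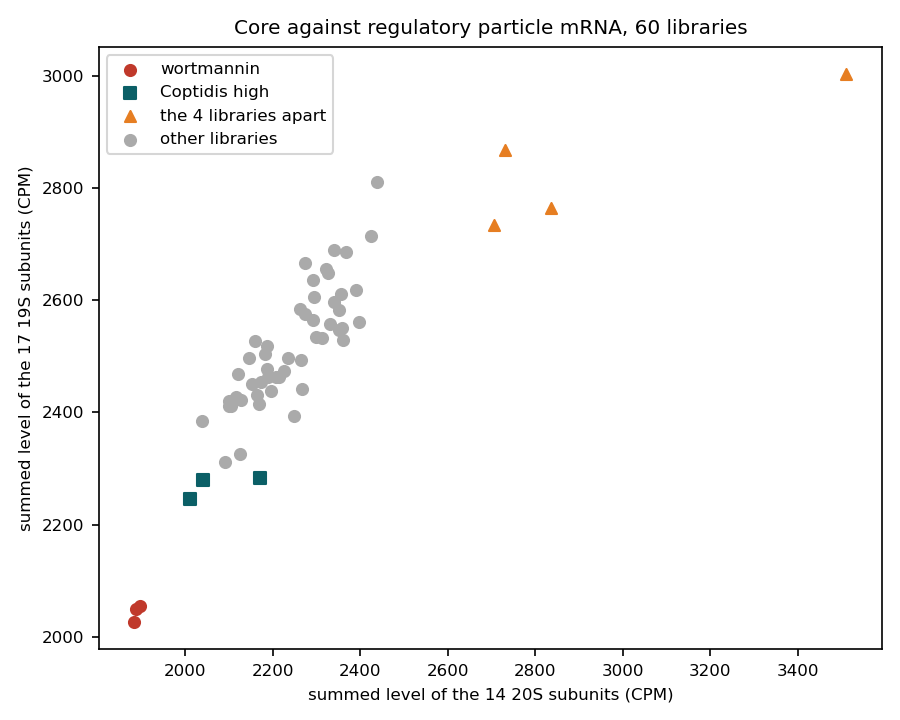
Summed CPM of the 17 19S genes against that of the 14 20S genes in the 60 libraries. Wortmannin (circles, core 1884 to 1897 CPM, 19S 2027 to 2056 CPM) lies below all other libraries on both axes. Coptidis high (squares, 19S 2245 to 2283 CPM) lies below the other 50 libraries in 19S sum (2311 to 2811 CPM) and overlaps them in core sum. The 4 libraries that stood apart (triangles) lie to the right, with core sums of 2707 to 3511 CPM against 2039 to 2439 CPM in these 50.

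The balance of cap and core was lowest in the libraries that stood apart. The ratio of summed 19S to summed 20S CPM was 1.08 to 1.09 in wortmannin libraries, 1.05 to 1.12 in Coptidis high libraries, 0.855 to 1.05 in the 4 libraries that stood apart and 1.06 to 1.17 in the other 50. Ordered by summed level, the groups ran from wortmannin through Coptidis high (4342 ± 101 CPM), Coptidis medium (4499 ± 127 CPM), Zizyphi low (4564 ± 125 CPM) and Coptidis low (4629 ± 69.1 CPM) up to Scutellariae high (5111 ± 121 CPM), vehicle, ginger high (5145 ± 393 CPM) and Zizyphi high (5370.5 ± 1012 CPM). Above wortmannin, the libraries of each group overlapped those of the next.

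The changes between doses were also compared between extracts. The high-against-low change of Coptidis minus that of Scutellariae called 8 members lower, where 17.8% of tested genes were called lower. The count was 5 without Scutellariae high replicate 1, 16 (15 lower, 1 higher) without the 4 libraries that stood apart and 18 (17 lower, 1 higher) with only the libraries compared. For such refits the share of all tested genes called is not given here. PSMD14 had the largest difference (-0.72 ± 0.076; edgeR adjusted p = 4.10e-11), followed by PSMD1 (-0.60 ± 0.086), and the differences for PSMB5, PSMB6, PSMD4 and PSMD8 did not pass the test. Coptidis minus Zizyphi, which share a set of library codes, called 19 lower, where 21.1% of tested genes were called lower. It was 12 without Zizyphi high replicate 3, 8 with only the libraries compared, and 16 lower and 1 higher without the 4 libraries that stood apart, where the difference at PSMB3 shrank to -0.31 and that at PSMD14 was -0.63. Scutellariae minus Pinelliae called 0 members with edgeR (6.3% of tested genes in either direction; 0 members at an unadjusted p under 0.05; 0 by DESeq2), and so did ginger minus fresh ginger (0% of tested genes; 4 members at an unadjusted p under 0.05; 0 by DESeq2).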

How the data were processed

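Total RNA of HT29 cells was made into directional libraries and read as paired ends of 100 bp, per the labels' protocols. The authors deposited expected counts for each gene, which RSEM 1.3.3 gives after alignment with STAR 2.7.3a to GRCh38, after FastQC 0.11.9 and Trim Galore 0.6.5, per the submitters' processing notes; the annotation release is not given in the sources used here. They were rounded to whole counts (8.75% were not whole). A further 210 columns belong to samples outside this set and were left out. Symbols came from a table of gene names and coordinates from GENCODE 29.

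The model was edgeR 4.0.16 under R 4.3.3 (TMM scaling, filterByExpr, robust quasi-likelihood, 1 coefficient per group, all 60 libraries, 40 residual degrees of freedom), and p-values were adjusted over 16609 genes by the Benjamini-Hochberg method. The error given with a log2 change is an approximate standard error, the change divided by the root of its F statistic, and intervals cover a nominal 95%. The fit was tested on simulated counts for Coptidis high against low dose, with 50 changed genes at each size of change. It recovered 18% of 1.15-fold changes, 86% of 1.3-fold changes and 100% of 1.5-fold changes, with 11 false calls. A small change that did not pass the test may therefore have been missed. No library was a copy of another (smallest chi-square per gene 2.24 within a group). Groups and doses came from the labels.

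The members, gene lists and tests were chosen with earlier results of these data known. In each comparison described in full, the text names the 6 called members with the largest change in each direction, PSMB5, PSMB6, PSMB7, PSMD2, PSMD4 and PSMD14, and up to 4 genes of other lists by smallest p; other called members fill out counts. Alternatives were DESeq2 1.42.0 (its size factors, its Wald test), no filter on low counts, only the libraries compared, a replicate block and leaving out each library; leaving out the 4 libraries that stood apart and replacing vehicle by low-dose groups were added after the data were seen. Protein sequences were not used here, and a few genes of the other lists are not reported here.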

Additional observations from a re-analysis of the deposited data

Results flagged for a closer look

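The high-against-low dose change of Coptidis differed from that of other extracts by a test of the difference itself (edgeR interaction terms, Benjamini-Hochberg adjustment over 16609 genes). Against Scutellariae, 8 of the 31 subunit genes differed, each with the lower change in Coptidis, where 17.8% of all tested genes were called lower; the count was 16 without the 4 libraries that stood apart, 18 with only the libraries compared and 5 without Scutellariae high replicate 1. The difference, Coptidis minus Scutellariae, was -0.72 for PSMD14, -0.60 for PSMD1, -0.45 for PSMB2, -0.45 for PSMD11, -0.32 for PSMB7 and -0.21 for PSMD2 on the log2 scale; PSMC4 (-0.21) and PSMD3 (-0.18) made up the rest. PSMD14 and PSMD11 were called lower between Coptidis doses and higher between Scutellariae doses, but both Scutellariae calls were lost without Scutellariae low replicate 2. PSMD14, PSMD1, PSMB2 and PSMD11 were called under all 18 alternatives of this difference.

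Against Zizyphi, 19 genes differed, each with the lower change in Coptidis, where 21.1% of all tested genes were called lower. The count was 8 with only the libraries compared and 12 without Zizyphi high replicate 3, and without the 4 libraries it was 16 lower and 1 higher (PSMD8, 0.16; edgeR adjusted p = 0.0357). Coptidis minus Zizyphi was -0.71 for PSMD14, -0.71 for PSMA2, -0.71 for PSMB3, -0.70 for PSMD1, -0.54 for PSMB6 and -0.51 for PSMB5. Zizyphi high replicate 3, which stood apart, moves with part of this: without the 4 libraries that stood apart the differences were -0.36 for PSMA2, -0.31 for PSMB3, -0.23 for PSMB6 and -0.27 for PSMB5, against -0.63 for PSMD14 and -0.60 for PSMD1. What set that library apart was not tested.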

How the results depend on the processing

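Of 45 counts of members called, 580 alternative values were computed, of which 525 stayed within 1.5 times the first count and 55 did not. Most of the first counts were 0, and most of the 525 were a 0 that stayed 0, so this total says little about the counts above 0. The 525 also include a fall from 31 to 21 for wortmannin against vehicle. Shares of all tested genes are not given here for these alternatives. Of 127 called log2 changes, 2016 alternative values were computed: 1872 kept direction and call, 144 kept direction but lost the call, and 0 reversed. Wortmannin against vehicle gave 31 under both other tool settings, no filter, only the libraries compared and without the 4 libraries, 21 to 31 with each library left out and 22 with the low-dose groups in place of vehicle. With no filter on low counts, the counts were 3 lower for fresh ginger high and for Pinelliae high against vehicle, 1 for Scutellariae high against vehicle, 1 for Scutellariae high against low and 20 higher for Zizyphi high against low. Without the 4 libraries that stood apart they were 6 for Scutellariae high against vehicle, 9 for Scutellariae high against low and 17 for Coptidis high against low. With only the libraries compared, 11 members were called for Scutellariae and 18 for Coptidis, high against low. The DESeq2 Wald test called 8 for Scutellariae and 23 for Zizyphi, high against low. When each library was left out, the counts ran from 1 to 3 for Scutellariae high against vehicle, 0 to 2 for fresh ginger, 0 to 5 for Scutellariae, 6 to 8 for Coptidis and 0 to 26 for Zizyphi, high against low. The difference between Coptidis and Scutellariae gave 16 without the 4 libraries, 18 with only the libraries compared and 5 to 11 with each library left out; that between Coptidis and Zizyphi gave 8 with only the libraries compared and 12 to 26 with each library left out. The 2 calls for fresh ginger came without its low replicate 2. The causes were not tested. Same-numbered libraries showed no steady pairing: their correlations ran from -0.37 to 0.21, and in 0 of 13 comparisons were all above 0.1. With 3 libraries per group this cannot exclude an effect shared by replicate number. With a replicate block, wortmannin against vehicle gave 31, and the counts with a block are not given here for the dose comparisons. Depth of 11.1 to 34.4 M counts put all members well above the filter on low counts, and 3 libraries per group limit what small changes can be called.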
